A study of Mus musculus with 3 samples.

Results

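Type I interferon response genes are the genes that detect viral nucleic acids, make or receive type I interferon, pass on its signal, or are switched on by it. The set described here was a list of 39 symbols: interferon beta, its receptor, signalling factors, RNA sensors and induced effectors. Of these, 37 had a probe set that carried their symbol alone, out of 19938 genes measured that way, and Isg15 and Gbp2 shared their probe sets with another gene and are given no value. The list was not chosen from the measured values of these arrays, but it was drawn up with earlier results of the same arrays known.

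The cells were peritoneal macrophages from male Angptl4-/- mice of the C57Bl/6J strain, drawn into the peritoneal cavity with 4% thioglycollate and kept in culture before exposure. The age of the mice is not given in the sources used here. All 3 groups carried the Angptl4 deletion, so no group had the cells' own ANGPTL4, a secreted inhibitor of lipoprotein lipase. The groups were PBS for 6 h, intralipid (a triglyceride emulsion, 0.5 mM triglyceride) for 6 h, and the same intralipid exposure with 2.5 µg/mL recombinant ANGPTL4, with which cells were pre-incubated for 1.5 h. Each group had 1 array, hybridised with RNA pooled from 3 samples, so no spread between cultures is known, no test was run, and a higher or lower value describes only the arrays compared. In bulk samples, fewer cells of a type and less RNA per cell cannot be told apart.

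Type I interferons are secreted when cells sense foreign nucleic acid. They bind a receptor made of IFNAR1 and IFNAR2, whose kinases activate STAT proteins. STAT2 and IRF9 belong to the complex that binds the interferon-stimulated response element in the promoters of induced genes, and macrophages both make and respond to these interferons. Many induced genes have a low basal level that depends on tonic interferon signalling.

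Values are the deposited log2 expression values, and a gene was called past the expression floor where its value was at or above the median of the probe sets with a named gene. That median was 4.98 on the array with PBS and 4.97 on the others. Of all genes, 10090 passed it on at least 1 array, and of the 37 measured members 29 did, 25 of them on all 3 arrays, 1 on 2 arrays and 3 only with ANGPTL4. As a yardstick, a robust SD of log2 differences was taken from the central 68% of genes past the floor. It was 0.20 for intralipid against PBS, 0.23 for intralipid plus ANGPTL4 against intralipid, and 0.10 for intralipid plus ANGPTL4 against PBS. In the same order, 3246, 3098 and 4054 of these 10090 genes had a difference of exactly 0, and such ties make the SD smaller. Angptl4 was listed at 4.92 on each array, below the floor, which is no check of the deletion, since where its probe set lies relative to the deleted sequence is unknown here. The 9 macrophage markers all passed the floor, with medians of 10.87, 10.81 and 11.12 in the order PBS, intralipid, intralipid plus ANGPTL4. Single markers did differ. Cd14, a co-receptor for lipopolysaccharide, was at 9.07, 11.17 and 10.34 in that order, which is 4.29-fold higher with intralipid than with PBS and 2.40-fold higher with ANGPTL4 than with PBS. Fcgr1, a high-affinity IgG receptor that interferon can also induce, was at 9.54, 9.07 and 8.53, which is 2.01-fold lower with ANGPTL4 than with PBS. Their part in the results was not tested. Of the markers of plasmacytoid dendritic cells, which are strong interferon producers, Siglech was at 3.65 on every array, Ccr9 at 4.35 or less and Ly6d at 4.06 or less, all below the floor, while Tcf4 and Bst2, which macrophages can also express, passed it. No B cell marker (4 measured) and no T or NK cell marker (7 measured) passed it. Of the other lists, 1 of 8 neutrophil markers (S100a8, 5.86 on every array), 1 of 6 conventional dendritic cell markers (Clec9a, at 3.44, 5.00 and 3.32) and 5 of 8 fibroblast and mesothelial markers did. The last list had medians of 7.66, 7.52 and 7.56, and its part in the results was not tested.

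The promoters show which members carry the interferon-responsive letters. The windows, taken from RefSeq on GRCm38.p6, run from 250 bases before to 50 bases after each start site, and 31 of the 39 members had one. The core letters of the interferon-stimulated response element (GAAA, any 2 bases, GAAA) were searched on both strands, as were those of the gamma-activated site that STAT dimers bind (TTC, any 3 bases, GAA). The first were found in 13 of the 31 members (41.9%) and in 1079 of all 27025 genes with a window (3.99%). The second were found in 9 members (29%) and in 2582 of all genes (9.55%). Both sets of letters can overlap, and in Bst2 they did. A match is a run of letters, not a shown binding site.

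**Figure D1:**
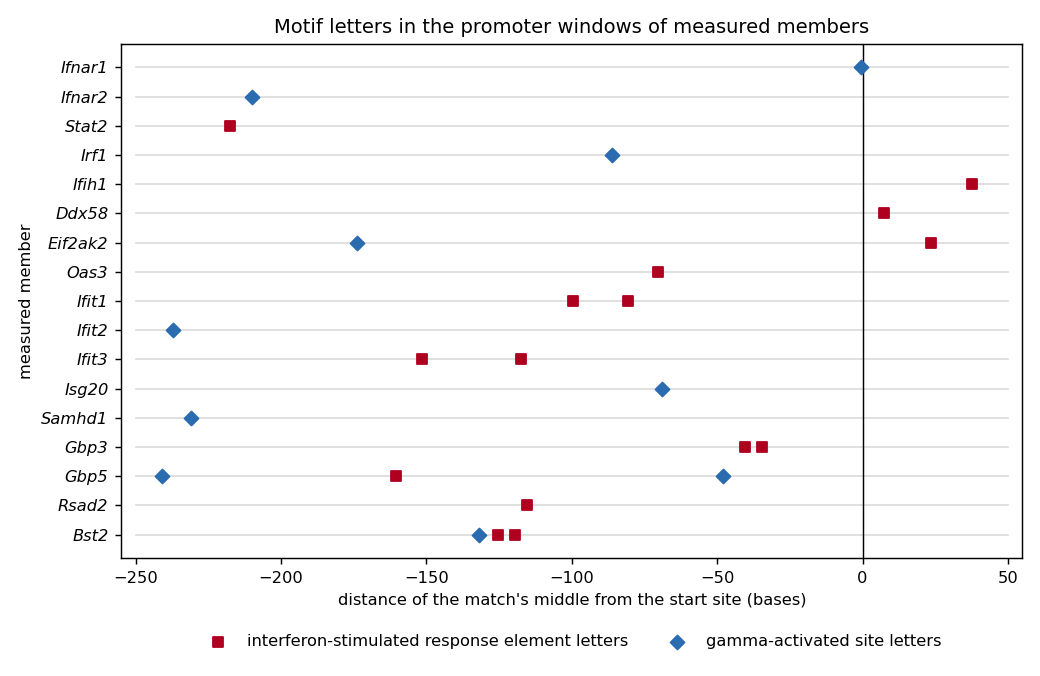
Positions of the searched letters in the promoter windows of the measured members that hold any. The x axis is the distance in bases of the middle of each match from the start site (line at 0), each row is a gene, squares are the interferon-stimulated response element letters and diamonds the gamma-activated site letters. Ifih1, Ddx58 and Eif2ak2 have their response element matches just after the start site, and Ifit1, Ifit3, Gbp3 and Bst2 have a pair of such matches before it. Eif2ak2 also has a gamma-activated site match before it, from -178 to -170.

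Ifit1 and Irf1, which had the largest differences with ANGPTL4, and Trim25, which was highest with intralipid, are shown over the 250 bases before the start site, with matches to either set of letters in capitals. Ifit1 holds 2 response element matches on its opposite strand, which therefore read TTTC, any 2 bases, TTTC as printed, Irf1 holds 1 gamma-activated site match in the first of its windows, and Trim25 holds neither.
Ifit1, chr19:34640639-34640888, plus strand: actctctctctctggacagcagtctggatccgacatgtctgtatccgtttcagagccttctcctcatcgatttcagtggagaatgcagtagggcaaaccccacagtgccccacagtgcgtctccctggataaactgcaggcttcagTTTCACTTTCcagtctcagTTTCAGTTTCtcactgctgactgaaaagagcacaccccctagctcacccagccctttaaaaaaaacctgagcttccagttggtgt
Irf1, chr11:53769764-53770013, plus strand: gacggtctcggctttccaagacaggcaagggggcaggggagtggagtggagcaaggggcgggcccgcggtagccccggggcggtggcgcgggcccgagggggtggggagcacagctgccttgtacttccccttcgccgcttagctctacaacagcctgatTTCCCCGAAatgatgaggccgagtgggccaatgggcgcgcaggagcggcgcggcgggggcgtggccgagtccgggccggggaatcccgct
Trim25, chr11:88999153-88999402, plus strand: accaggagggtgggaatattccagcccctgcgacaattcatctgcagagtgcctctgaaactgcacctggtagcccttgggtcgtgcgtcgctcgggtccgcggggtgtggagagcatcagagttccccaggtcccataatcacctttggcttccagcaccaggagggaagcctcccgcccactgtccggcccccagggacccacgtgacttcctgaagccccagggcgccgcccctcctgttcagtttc

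For other members past the floor on these arrays, 30 bases around the first response element match are shown, with the match in capitals.
Ifih1, chr2:62646206-62646235, minus strand: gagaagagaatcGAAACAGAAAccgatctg
Ddx58, chr4:40239804-40239833, minus strand: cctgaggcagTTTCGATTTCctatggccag
Eif2ak2, chr17:78882535-78882564, minus strand: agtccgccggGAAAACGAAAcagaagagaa
Stat2, chr10:128270266-128270295, plus strand: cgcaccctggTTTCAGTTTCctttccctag
Gbp3, chr3:142559989-142560018, plus strand: caggacacagTTTCAGTTTCtatttcccag
Bst2, chr8:71537583-71537612, minus strand: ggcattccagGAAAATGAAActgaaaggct
Oas3, chr5:120777715-120777744, minus strand: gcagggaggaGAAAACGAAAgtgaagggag
Rsad2, chr12:26456553-26456582, minus strand: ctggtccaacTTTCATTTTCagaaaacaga

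The ligand and its receptor come first. Ifnb1 (probe set 10514285), which encodes interferon beta, was listed at 3.15 (log2) on all 3 arrays, below the floor. Ifnar1 (10436849), one chain of the receptor, was at 10.04 with PBS, 9.51 with intralipid and 10.33 with ANGPTL4 added. It was lowest with intralipid, and with ANGPTL4 it was 1.77-fold above that value. Ifnar2 (10436830), the other chain, was at 9.60, 9.85 and 9.93 in the same order. Its lowest value was thus with PBS, and its largest difference was 1.25-fold.

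**Figure D2:**
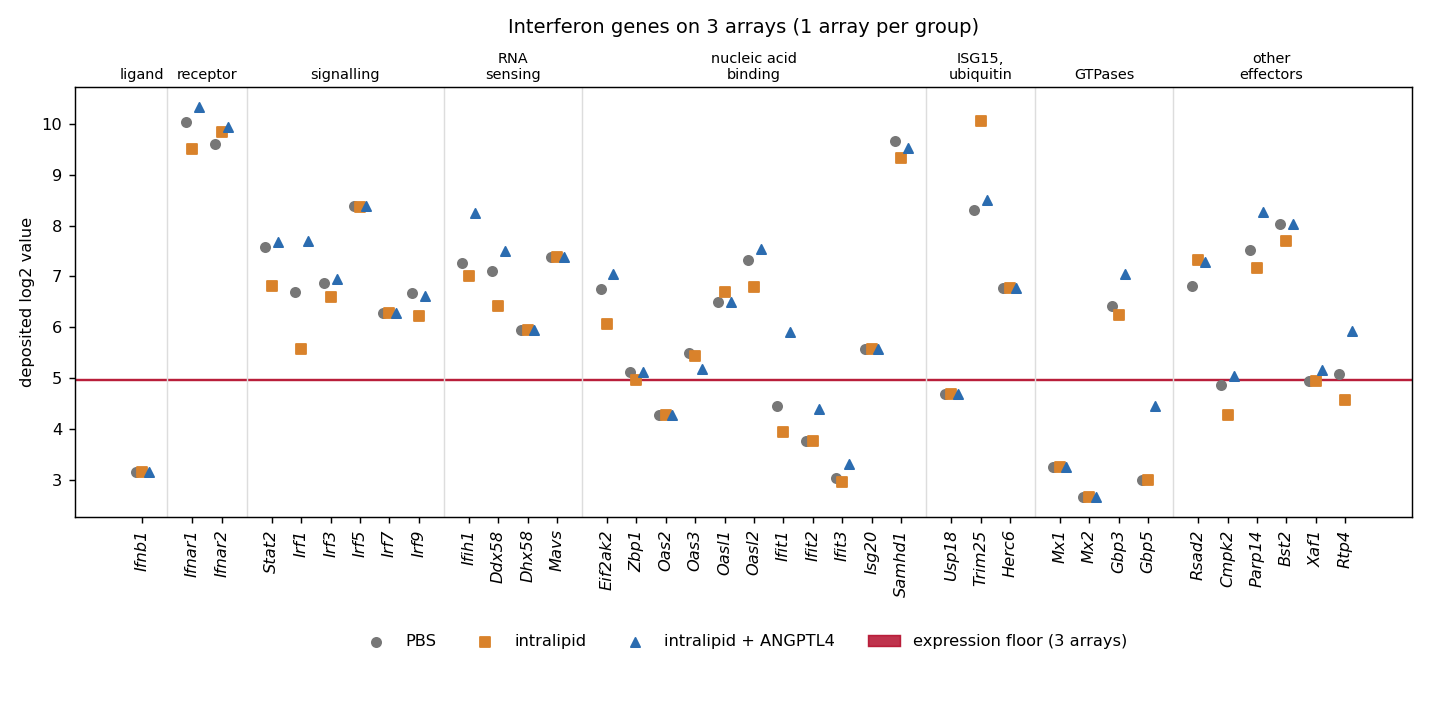
Deposited log2 values of the 37 measured members on the 3 arrays, grouped by role, with 1 point per array. The y axis is the log2 value and the red band marks the expression floor of the 3 arrays. Irf1, Ifih1, Ifit1, Parp14 and Rtp4 have their highest point on the array with ANGPTL4, Trim25 has its highest on the intralipid array, and 10 members show 3 identical values.

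Among the signalling factors, Irf1 stood out. Irf1 (10376060), a transcription factor of interferon and inflammatory genes, was at 6.69 with PBS, 5.58 with intralipid and 7.69 with ANGPTL4 added. It was 2.16-fold lower with intralipid than with PBS, a difference that 0.876% of genes matched or exceeded downward. With ANGPTL4 it was 4.34-fold above intralipid alone, which 0.199% of genes matched or exceeded upward, and 2.01-fold above PBS. A second probe set of Irf1 (10385870) was at 4.27 on all 3 arrays, below the floor. With the mean over both probe sets, the log2 differences of Irf1 were -0.56, 1.06 and 0.50 in the order intralipid against PBS, ANGPTL4 against intralipid and ANGPTL4 against PBS.

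Stat2 (10367224), the STAT protein particular to type I and type III interferon signalling, was at 7.57, 6.82 and 7.69 on the PBS, intralipid and ANGPTL4 arrays. The PBS and ANGPTL4 values were close, 1.08-fold apart, and the intralipid value was 1.69-fold below PBS. Irf9 (10415319), its DNA-binding partner, was at 6.67, 6.23 and 6.62, so its largest difference was 1.35-fold. Irf3 (10552812), which is activated by phosphorylation when nucleic acids are sensed, was at 6.87, 6.60 and 6.95. Irf5 (10536898), a factor downstream of Toll-like receptors, was at 8.39, 8.37 and 8.39. Irf7 (10569102), itself a classic induced gene and amplifier of the response, was listed at 6.29 on all 3 arrays.

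The RNA sensors split into a pair that differed and a pair listed at identical values. Ifih1 (10483110) encodes MDA5, a sensor of long double-stranded RNA, and was at 7.26 with PBS, 7.00 with intralipid and 8.26 with ANGPTL4 added. On the ANGPTL4 array it was 2.39-fold above intralipid alone and 1.997-fold higher than with PBS, which lies just under 2-fold. Ddx58 (10512067) encodes RIG-I, a sensor of RNA with a triphosphate end, and was at 7.10, 6.43 and 7.50. It was 1.59-fold lower with intralipid than with PBS, and with ANGPTL4 2.10-fold above intralipid alone. Both genes carry their response element letters just after the start site, as printed above. Dhx58 (10391207), the regulatory member of this receptor family, was listed at 5.94 on all 3 arrays, and Mavs (10476276), the mitochondrial adaptor of both sensors, at 7.37 on all 3.

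Of the effectors that bind nucleic acids, Ifit1 and Eif2ak2 differed most. Ifit1 (10462623), which binds viral RNA that lacks cap methylation, was at 4.46 with PBS, 3.94 with intralipid and 5.90 with ANGPTL4 added. Only the ANGPTL4 array reached the floor. The 3.91-fold difference from intralipid and the 2.72-fold difference from PBS therefore rest on values near background, and against the floor they would be 1.91-fold and 1.90-fold. Ifit2 (10462613) and Ifit3 (10462618), neighbours of Ifit1 in the same family, were below the floor throughout. Ifit2 was at 3.76, 3.76 and 4.40. Ifit3 was at 3.04, 2.96 and 3.32. Both had their highest value with ANGPTL4.

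Eif2ak2 (10452980), which encodes the double-stranded RNA-activated kinase PKR, was at 6.76, 6.07 and 7.05 on the PBS, intralipid and ANGPTL4 arrays. It was 1.61-fold lower with intralipid than with PBS, and with ANGPTL4 1.97-fold above intralipid alone. The oligoadenylate synthetase family, whose active members make the activator of RNase L, did not share 1 pattern. Oasl2 (10524621) was at 7.33, 6.79 and 7.54, lowest with intralipid. Oasl1 (10524631) was at 6.50, 6.70 and 6.50, highest with intralipid. Oas3 (10533213) was at 5.49, 5.45 and 5.19, lowest with ANGPTL4, although its window holds the response element letters. Oas2 (10533198) was listed at 4.27 on all 3 arrays, below the floor.

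Samhd1 (10489107), a nucleotide triphosphohydrolase that restricts retroviruses, was at 9.67, 9.33 and 9.52. Zbp1 (10490150), a sensor of Z-form nucleic acid that can trigger cell death, was at 5.12, 4.97 and 5.12, close to the floor. Isg20 (10554240), an exonuclease, was listed at 5.57 on all 3. None of these 3 genes differed by more than 1.27-fold.

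Trim25 was the only measured member at least 2-fold higher with intralipid than with PBS. Trim25 (10380260), a ubiquitin ligase that helps activate RIG-I, was at 8.30 with PBS, 10.06 with intralipid and 8.51 with ANGPTL4 added. It was 3.38-fold higher with intralipid than with PBS, which 0.916% of genes matched or exceeded upward, and with ANGPTL4 2.93-fold below intralipid alone. The PBS and ANGPTL4 values were 1.15-fold apart. Its 300-base window holds neither set of letters. Herc6 (10538590), the mouse ligase for the ubiquitin-like protein ISG15, was listed at 6.78 on all 3 arrays. Usp18 (10541307), the protease that removes ISG15 and restrains the receptor, was listed at 4.68 on all 3, below the floor.

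Of the interferon-induced GTPases, 1 of 4 measured members passed the floor. Gbp3 (10496580), a guanylate-binding protein, was at 6.41, 6.24 and 7.06, highest with ANGPTL4, and 1.76-fold higher there than with intralipid alone. Gbp5 (10496539), which promotes inflammasome assembly, was at 3.00, 3.00 and 4.45 and stayed below the floor, so no fold is read from it. Mx1 (10441233) and Mx2 (10437224), dynamin-like antiviral GTPases, were listed at 3.25 and 2.66 on every array.

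Of the 6 remaining effectors, 4 were highest with ANGPTL4, as were 2606 of the 10090 genes past the floor (25.8%). Cmpk2 and Xaf1 are among the 4 and passed the floor only on that array, which favours this order by construction. Parp14 (10439249), an ADP-ribosyltransferase, was at 7.51, 7.16 and 8.26, and with ANGPTL4 was 2.15-fold above intralipid alone. Rtp4 (10434778), a transporter-like protein that inhibits RNA viruses, was at 5.07, 4.57 and 5.92, and its 2.55-fold difference between the same arrays would be 1.94-fold against the floor. Cmpk2 (10395039), a mitochondrial nucleotide kinase, was at 4.86, 4.27 and 5.05, past the floor only with ANGPTL4, and its 1.71-fold difference from intralipid would be 1.06-fold against the floor. Its genomic partner did not follow it. Rsad2 (10399710), which encodes viperin and lies next to Cmpk2 in the opposite orientation, was at 6.82, 7.33 and 7.28, lowest with PBS. Bst2 (10579532), the tether that holds budding virus at the cell surface, was at 8.03, 7.71 and 8.03. Xaf1 (10378068), a pro-apoptotic factor, was at 4.94, 4.94 and 5.17, past the floor only with ANGPTL4.

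Read comparison by comparison, intralipid against PBS sets the array with the lipid load beside the array without it. Over all 37 measured members, 4 were higher with intralipid, 20 lower and 13 identical, with a median log2 difference of -0.042, against 3153 higher, 5521 lower and 11264 identical of the 19938 genes and a median of 0. Many of all those genes were below the floor. Of the 29 members past it on any of the 3 arrays, 4 were higher, 19 lower and 6 identical, against 2362, 4482 and 3246 of 10090 genes. Of the 26 members past the floor on either array, 1 was at least 2-fold higher (Trim25; background 2.51% of genes) and 1 at least 2-fold lower (Irf1; background 1.32%). At 1.5-fold, 4 members were lower (Stat2, Irf1, Ddx58 and Eif2ak2; background 5.57%) and 1 was higher (Trim25; background 5.07%). The 2-fold counts are thus 1 gene in each direction.

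**Figure D3:**
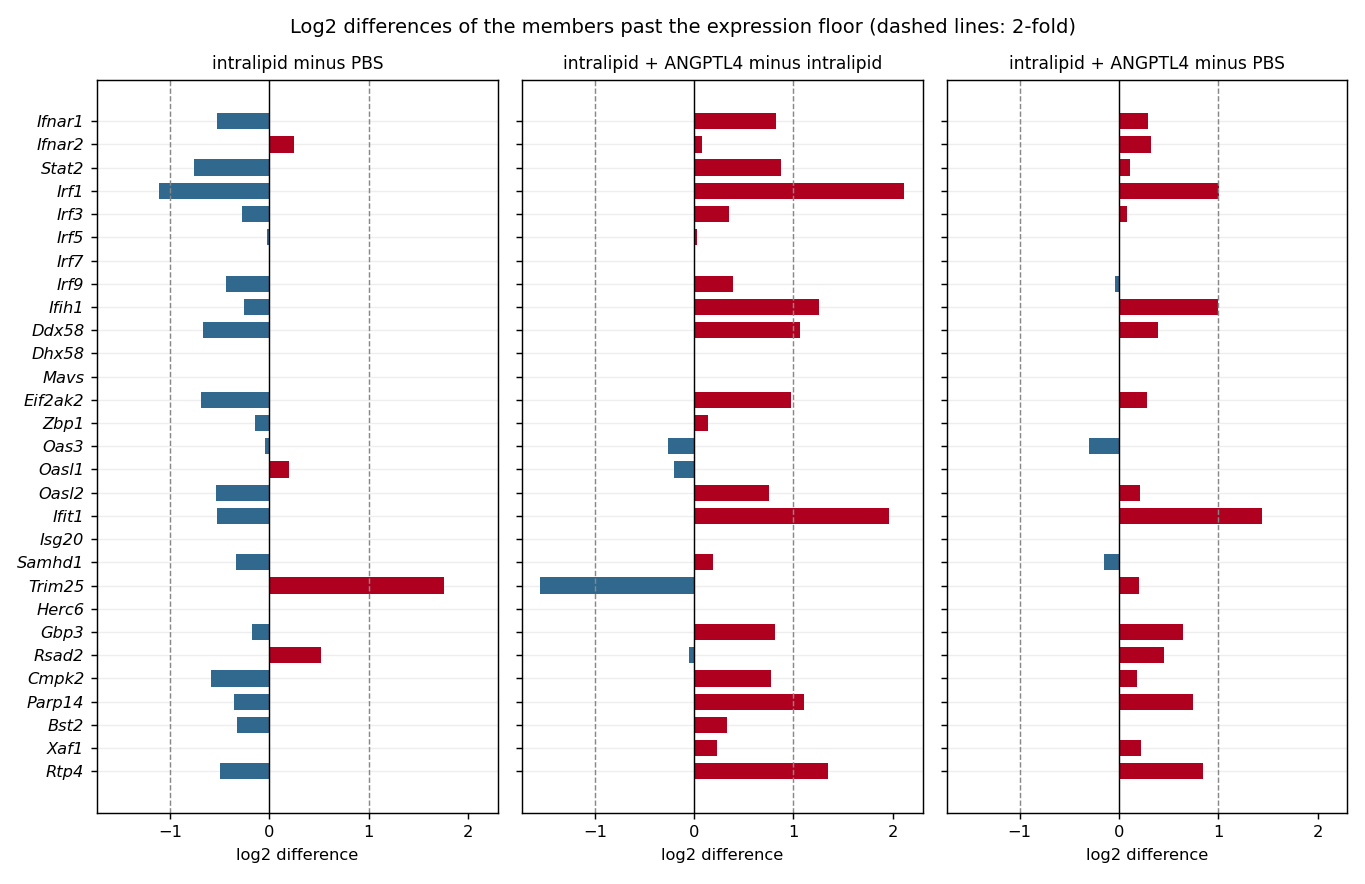
Log2 differences of the 29 members that reached the floor on any array, in the 3 comparisons, with 1 bar per gene. The x axes are log2 differences, dashed lines mark 2-fold, red bars are higher and blue bars lower on the first-named array. Most bars point left for intralipid against PBS and right for intralipid plus ANGPTL4 against intralipid, and Trim25 points the other way in both, which share the intralipid array.

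Intralipid plus ANGPTL4 against intralipid alone sets the array with the protein beside the array with the lipid load only. A 1.5 h pre-incubation is given for the ANGPTL4 group only. In comparisons with that group, it cannot be told apart from the protein. Both this comparison and the first use the intralipid array, so a deviation of that 1 array would move them in opposite directions. Over all 37 measured members, 23 were higher with ANGPTL4, 4 lower and 10 identical, with a median of 0.23, against 5279 higher, 3669 lower and 10990 identical of all genes. Of the 29 members past the floor on any of the 3 arrays, 20 were higher, 4 lower and 5 identical, against 4669, 2323 and 3098 of 10090 genes. Of those members, 3 passed the floor only with ANGPTL4. Of the 29 members past the floor on either array, 6 were at least 2-fold higher (Irf1, Ifih1, Ddx58, Ifit1, Parp14 and Rtp4; background 2.53%) and 1 at least 2-fold lower (Trim25; background 2.3%). At 1.5-fold, 12 were higher (background 8.26%), adding Ifnar1, Stat2, Eif2ak2, Oasl2, Gbp3 and Cmpk2, and 1 was lower (background 4.95%). Ifit1 and Cmpk2 passed the floor only on the ANGPTL4 array, where they were high, and Rtp4 was below it with intralipid, so their calls rest on values under the floor. With such values raised to the floor, 4 members were at least 2-fold higher (Irf1, Ifih1, Ddx58 and Parp14; background 2.39%) and 11 at least 1.5-fold higher (without Cmpk2; background 7.85%). Eif2ak2, at a log2 difference of 0.97, and Ddx58, at 1.07, lie just outside and just inside 2-fold.

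Intralipid plus ANGPTL4 against PBS compares the array of the treated cultures with that of the baseline and does not use the intralipid array. It shares the ANGPTL4 array with the comparison before it and the PBS array with the first, so it is independent of neither. A deviation of the 1 ANGPTL4 array would move both comparisons that use it in the same direction. Here 20 of the 37 members were higher, 3 lower and 14 identical, with a median of 0.11, against 3959 higher, 3920 lower and 12059 identical of all genes. Genes past the floor on any of the 3 arrays leaned upward as a whole, with 3557 higher, 2479 lower and 4054 identical of 10090. The 29 members past it were 17 higher, 3 lower and 9 identical, and 3 of them passed it only with ANGPTL4. Of the 29 members past the floor, 2 were at least 2-fold higher (Irf1 and Ifit1; background 0.85%) and 0 at least 2-fold lower (background 0.04%). Ifit1 passed the floor only on the ANGPTL4 array, and with values below the floor raised to it, Irf1 alone was 2-fold higher (1 of 29; background 0.78%). Irf1 lies just inside 2-fold, with a log2 difference of 1.004, and Ifih1 just outside. At 1.5-fold, 6 were higher (Irf1, Ifih1, Ifit1, Gbp3, Parp14 and Rtp4; background 2.37%) and 0 lower (background 0.53%).

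**Figure D4:**
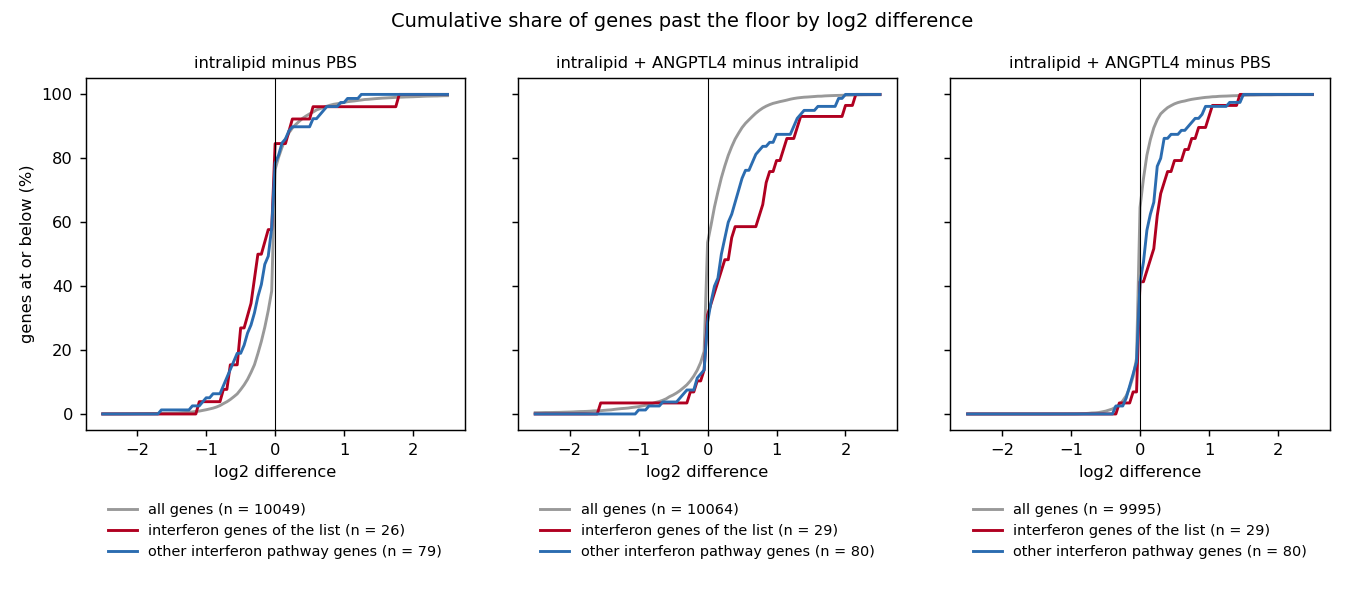
Cumulative share of genes by log2 difference in each comparison, over genes past the floor on either array, for all genes, the interferon members and the further pathway genes. The x axes are log2 differences and the y axis is the percentage of genes at or below each value. In both comparisons with the ANGPTL4 array as first named, the member curve lies mostly to the right of that of all genes above 0, and for intralipid against PBS to the left of it below 0.

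Identical values need care in reading these counts. Of the 37 members, 10 (27.0%) had the same deposited value on all 3 arrays, as did 49.3% of all genes, and 5 of the 29 past the floor did (17.2%, against 25.1% of genes). Those 5 were Irf7, Dhx58, Mavs, Isg20 and Herc6. Other members past the floor were identical on a pair of arrays only. These were Irf5, Bst2, Zbp1 and Oasl1 for PBS and ANGPTL4, and Xaf1 for PBS and intralipid. Whether the summary step of RMA made any of these values identical was not tested, so an identical value does not show that a transcript did not differ.

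The response element letters and the differences were set side by side for the 29 measured members with a promoter window. Parp14 and Rtp4 had no window and are not in this split. Of the 11 with the letters, 9 had a higher value with ANGPTL4 than without it under intralipid and 2 a lower one (Oas3 and Rsad2), with a median log2 difference of 0.87. The 9 include Gbp5 and Ifit3, below the floor on every array, and Ifit1, which reached it only with ANGPTL4. Of the 18 without the letters, 11 were higher, 2 lower (Oasl1 and Trim25) and 5 identical, with a median of 0.14. Irf1, the member with the largest difference, was among those without. Against PBS, the medians were 0.40 with the letters and 0.04 without. For ANGPTL4 against intralipid, all 605 genes with the letters were 168 higher, 117 lower and 320 identical. The 14958 genes without them were 4100 higher, 2727 lower and 8131 identical. The median over all genes was 0 with and without the letters, in this comparison and against PBS. Over all genes with a window that were past the floor on either array, 15 of 295 with the letters were, with ANGPTL4, at least 2-fold above intralipid alone (5.08%), and 198 of 7846 without them (2.52%). With both interferon lists left out, the shares were 11 of 267 (4.12%) and 193 of 7781 (2.48%). The gamma-activated site letters were split likewise. Of the 9 members with them, 8 were higher with ANGPTL4 than with intralipid alone, 0 lower and 1 identical (median 0.64). Of the 20 without, 12 were higher, 4 lower and 4 identical (median 0.29). Past the floor, the medians were 0.33 for 7 members and 0.29 for 18. Over all genes, 24 of 659 with these letters were at least 2-fold higher (3.64%), and 189 of 7482 without (2.53%). These are descriptions over genes of the same arrays and were not tested.

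Further interferon pathway genes were taken from a second list of 119 symbols, of which 102 had a probe set of their own and 80 passed the floor on at least 1 array. For intralipid against PBS, 2 of 79 were at least 2-fold higher (2.53%, against 2.51% of all genes) and 4 lower (5.06%, against 1.32%). The higher share was thus that of all genes. For intralipid plus ANGPTL4 against intralipid, 10 of 80 were higher (12.5%, against 2.53%) and 1 lower (1.25%, against 2.3%). Against PBS, 3 of 80 were higher with ANGPTL4 (3.75%, against 0.85%) and 0 lower (against 0.04%). Cd69, which passed the floor only with ANGPTL4, is 1 of the 10 and 1 of the 3. With values below the floor raised to it, the counts were 9 of 80 (against 2.39% of all genes) and 2 of 80 (against 0.78%). Over all 102, the median differences in the same order were -0.025, 0.085 and 0.

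Of the feedback regulators in the list, Socs3 (10393449), an inhibitor of cytokine receptor signalling, was at 6.02, 6.95 and 6.96, lowest with PBS and 1.91-fold higher with ANGPTL4 than with PBS. Socs3 had 2 probe sets, and only that with the higher mean is given here. Socs1 (10437668) was at 5.23, 5.28 and 5.23.

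Several of these genes act as sensors or between sensor and interferon production, while Jak2 and Ptpn6 act in cytokine receptor signalling. Ikbke (10357604), a kinase that activates IRF3, was at 8.67 with PBS, 8.40 with intralipid and 9.96 with ANGPTL4 added, which made it 2.44-fold higher than PBS on the last array. Myd88 (10597648), the adaptor of most Toll-like receptors, was at 8.63, 7.85 and 9.22. Tlr7 (10607870), a sensor of single-stranded RNA, was at 8.42, 7.36 and 8.63. For Myd88 and Tlr7, the intralipid value was the lowest, by 1.72-fold and 2.08-fold against PBS. Rnf135 (10379401), another ubiquitin ligase that activates RIG-I, was at 5.81, 4.88 and 6.15. It was thus lowest with intralipid, where Trim25 was highest, but its intralipid value was below the floor. The 2.41-fold difference of Rnf135 between ANGPTL4 and intralipid would be 2.27-fold against the floor. Jak2 (10462363), a receptor kinase, was at 8.33, 7.87 and 9.12. Ptpn6 (10547769), the phosphatase SHP-1 that restrains cytokine receptor signalling, was at 9.89, 8.23 and 10.20, which is 3.15-fold lower with intralipid than with PBS and 3.91-fold above intralipid alone with ANGPTL4.

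The others are products of interferon-responsive cells. Tor3a (10359181), an ATPase of the endoplasmic reticulum, was at 8.18, 6.98 and 8.86. Parp9 (10435457), an ADP-ribosyltransferase that works with a ubiquitin ligase, was at 6.93, 5.90 and 7.14. Both were lowest with intralipid. Ccl5 (10389207), a chemokine for T cells and monocytes, was at 6.58, 6.75 and 8.07, and was 2.81-fold above PBS with ANGPTL4. Cxcl10 (10531415), a chemokine for activated T cells, was at 5.36, 6.41 and 6.25, lowest with PBS. Cd274 (10462390), which encodes the checkpoint ligand PD-L1, was at 9.65, 10.90 and 9.89, highest with intralipid as Trim25 was. Cd69 (10548333), an early activation antigen, was at 3.51, 3.12 and 4.99, and its value with ANGPTL4 exceeded the floor by a factor of only 1.01, so although it counts as 2-fold higher above, its fold rests on values under the floor.

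**Figure D5:**
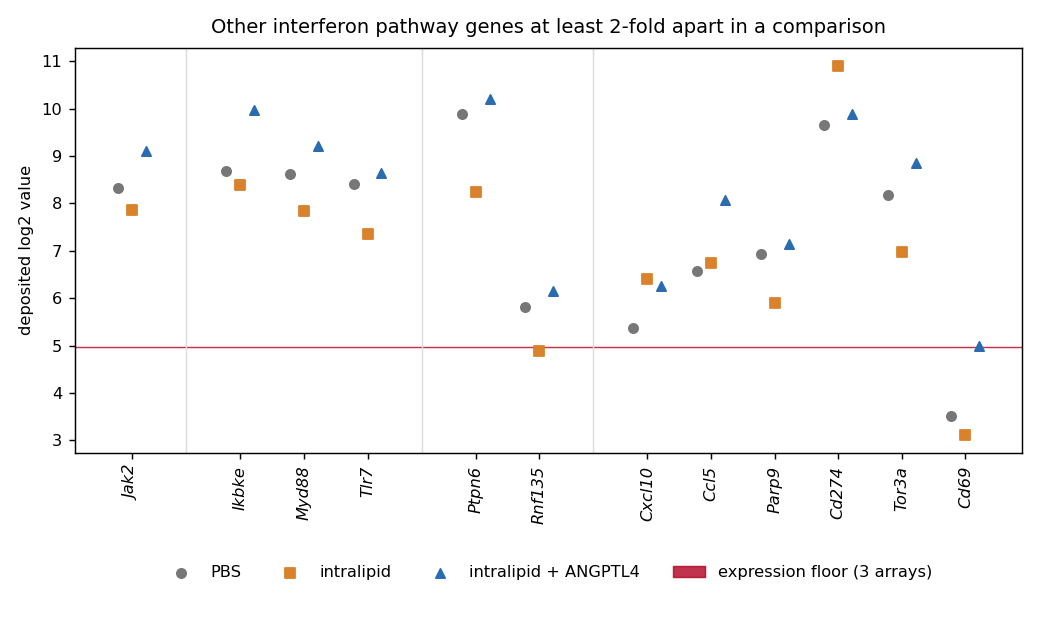
Deposited log2 values on the 3 arrays of the 12 genes of the second list that were at least 2-fold apart in a comparison, with 1 point per array. The y axis is the log2 value and the red band marks the expression floor. Cxcl10 and Cd274 are highest with intralipid, and all other genes shown are highest with ANGPTL4. All but Ccl5, Cxcl10 and Cd274 are lowest with intralipid.

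Of 8 other interferon ligands measured, 2 passed the floor. Ifna5 was at 5.32, 5.32 and 5.17. Ifnl2, a type III interferon, was at 6.34, 6.27 and 5.95. Both were lowest with ANGPTL4. Ifng was listed at 3.76 on all 3 arrays, below the floor, and Ifngr2, a chain of its receptor, at 10.56 on all 3.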

How the data were processed

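Each of the 3 arrays was hybridised with RNA pooled from 3 samples. The authors deposited a log2 value per probe set, made with RMA per the submitters' processing notes. For the RMA version, the chip definition and the genome build, the sources used here give nothing. RMA normalizes between arrays and summarises probes, which can return identical values on several arrays. Values were used as deposited (35556 probe sets). GEO's platform annotation gave 1 symbol to 21789 probe sets, several to 1621 and none to 12146. Per gene, the single-symbol probe set with the highest mean was taken. Depth does not apply to arrays; their number limits the precision.

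A gene was called higher or lower where the arrays differed at least 2-fold and at least 1 of them reached the floor, the 50th percentile of probe sets with a gene name. With 1 array per group no test was run. The text names all measured members by role, and genes of the second list at least 2-fold apart in any comparison; Socs1, Socs3, Ifna5, Ifnl2, Ifng and Ifngr2 were chosen after their values were seen. The members and lists were chosen with earlier results of these data known. Promoter windows came from RefSeq (GRCm38.p6), matched by symbol, and for the counts over array genes by gene identifier. The settings varied were the fold (1.5 and 3), the floor (none, or the 60th percentile), median centring, quantile and cyclic loess normalization (limma 3.58.1) and the mean over probe sets.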

Additional observations from a re-analysis of the deposited data

How the results depend on the processing

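The medians over the members past the floor kept their direction under each alternative run for them. The median of the second list for intralipid plus ANGPTL4 against PBS was 0.071 past the floor and 0 over all its measured genes, and the medians by promoter letters were not recomputed. For intralipid against PBS, the count of lower members went from 1 to 4 at 1.5-fold, to 0 at 3-fold and to 0 with the mean over probe sets, and the median went from -0.26 over members past the floor to -0.042 without the floor. For intralipid plus ANGPTL4 against intralipid, the count of higher members went from 6 to 12 at 1.5-fold and 2 at 3-fold (Irf1 and Ifit1), 7 without the floor (adding Gbp5), 4 with the 60th percentile floor (without Ifit1 and Rtp4) and 5 with quantile normalization (without Ddx58), that of lower members from 1 to 0 at 3-fold, and the median from 0.33 to 0.23 without the floor. For intralipid plus ANGPTL4 against PBS, the count of higher members went from 2 to 6 at 1.5-fold and 0 at 3-fold. It was 1 with the 60th percentile floor (Irf1), and 1 with quantile normalization, 1 with cyclic loess and 1 with the mean over probe sets (Ifit1 each time). It was 3 with centring (adding Ifih1) and 3 without the floor (adding Gbp5). Raising values below the floor to it, chosen after seeing the data, gave 4 and 1 higher members at 2-fold in the comparisons with intralipid and PBS (background 2.39% and 0.78%). At 1.5-fold it gave 11 (background 7.85%) and 6, and for intralipid against PBS 4 lower. Apart from these and the 2-fold and 1.5-fold counts of the main setting, no share over all genes was computed. Whether the members' counts moved differently from those of all genes is thus not known for the other settings. Irf1 lies at the 2-fold threshold for intralipid plus ANGPTL4 against PBS. Fewer genes or another threshold account for the floor and fold settings by construction; for the others the cause was not tested. Quantile normalization moved no member's log2 difference by more than 0.071, cyclic loess by more than 0.020 and centring by more than 0.013. No paired analysis was possible because each group had 1 array. No replicate could be left out. Values near the floor limit Ifit1, Rtp4, Cmpk2, Xaf1, Rnf135 and Cd69.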
